A study of Mus musculus with 16 samples.

Results

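A set of 10 transcriptional regulators of fat cell formation and metabolism, Pparg, Rxra, Nr1h3, Ebf1, Klf15, Stat5a, Foxo1, Tle3, Esrra and Ppargc1b, were followed through the series. They were chosen by gene symbol, and 10 of the 23420 genes in the count tables carry these symbols. The series holds RNA from 8 male C57BL/6 mice, of which 4 were labelled adipocyte-specific Trib1 knockouts and 4 wild-type. Trib1 encodes tribbles 1, a pseudokinase that brings target proteins to a ubiquitin ligase. Every mouse gave a library of adipocytes, released from subcutaneous fat with collagenase, and a library of liver. Polyadenylated RNA was sequenced in 16 libraries, which make 4 groups of 4: knockout-labelled adipocytes, wild-type adipocytes, knockout-labelled liver and wild-type liver.

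Mice are named here by genotype label and animal number. The knockout-labelled mice are KO-1137 and KO-1139, aged 76 days, and KO-1151 with KO-1152, aged 70 days. The wild-type mice are WT-1135, WT-1136 and also WT-1138, aged 76 days, and WT-1153, aged 70 days. Values per library follow this order of mice in each genotype. The labels used here give neither the driver of the deletion nor the part of Trib1 that was removed. No treatment is given for any group.

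PPARγ, the product of Pparg, is a fatty acid-activated nuclear receptor without which fat cells do not form, and it binds DNA as a heterodimer with RXRα, the product of Rxra. Nr1h3 encodes LXRα, an oxysterol receptor and another RXR partner. EBF1, KLF15 and STAT5A act in adipogenesis alongside PPARγ, TLE3 is a corepressor of the Groucho family that can also assist PPARγ, FOXO1 is held in check by insulin, and ERRα (Esrra) with its coactivator PGC-1β (Ppargc1b) drives mitochondrial genes. Liver uses RXRα, LXRα, KLF15 and FOXO1 for lipid, sterol and glucose metabolism and normally holds little PPARγ.

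Total counts were 28560887 to 53716669 per library, and 15279 to 16747 genes had counts. Trib1 did not separate the labels: its normalised read count, given as CPM after TMM scaling, was 911 to 1195 CPM in knockout-labelled and 616 to 1063 CPM in wild-type adipocytes, a log2 difference of 0.28 ± 0.18 (SE, edgeR adjusted p = 0.241). Because the deleted part is not given, reads elsewhere in the gene may still be counted, so the genotype is called by its label throughout. Summed adipocyte markers were 37350 to 41820 CPM in knockout-labelled and 30430 to 44790 CPM in wild-type adipocytes, and at most 428.4 CPM in liver. Summed hepatocyte markers were 141400 to 179100 CPM in liver and at most 105 CPM in adipocytes. In adipocytes, summed endothelial markers were 186 to 429.5 CPM in knockout-labelled and 650.9 to 1859 CPM in wild-type mice. Summed fibroblast and progenitor markers were 595 to 1109 CPM in knockout-labelled and 1367 to 1423 CPM in wild-type mice. Both sums were lower in every knockout-labelled than in any wild-type adipocyte library. In bulk RNA, fewer cells of a type and less RNA per cell cannot be told apart.

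A promoter of each of the 3 factors that rose in knockout-labelled adipocytes is given here so that sequence stands beside the values. Each window spans the bases around the first listed start site, taken from RefSeq on GRCm38.p6. Capitals mark the nuclear receptor half-site AGGTCA, the GC box GGGCGG and the CCAAT box, on either strand. Further start sites are listed for Pparg and Nr1h3, and their windows are not shown. These were 62.7% and 40.3% G+C for Pparg and 62.7% for Nr1h3. The Pparg window at 40.3%, from 115421816 to 115422115, held 2 CCAAT boxes and no half-site or GC box. The Pparg window at 62.7%, from 115362099 to 115362398, held 1 half-site, 2 GC boxes and 1 CCAAT box.

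Pparg, chr6:115360894-115361193, plus strand: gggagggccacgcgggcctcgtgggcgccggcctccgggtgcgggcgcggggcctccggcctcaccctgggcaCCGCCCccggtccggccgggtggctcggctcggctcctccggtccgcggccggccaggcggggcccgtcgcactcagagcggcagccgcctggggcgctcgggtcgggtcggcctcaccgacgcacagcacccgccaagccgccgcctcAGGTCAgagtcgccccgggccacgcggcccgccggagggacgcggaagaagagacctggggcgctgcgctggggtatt

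Nr1h3, chr2:91195067-91195366, minus strand: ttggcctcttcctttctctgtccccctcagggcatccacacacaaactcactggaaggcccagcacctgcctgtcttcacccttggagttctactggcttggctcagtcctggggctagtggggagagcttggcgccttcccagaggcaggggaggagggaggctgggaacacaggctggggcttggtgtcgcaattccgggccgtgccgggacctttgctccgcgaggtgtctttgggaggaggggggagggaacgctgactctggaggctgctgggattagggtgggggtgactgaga

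Esrra, chr19:6921759-6922058, minus strand: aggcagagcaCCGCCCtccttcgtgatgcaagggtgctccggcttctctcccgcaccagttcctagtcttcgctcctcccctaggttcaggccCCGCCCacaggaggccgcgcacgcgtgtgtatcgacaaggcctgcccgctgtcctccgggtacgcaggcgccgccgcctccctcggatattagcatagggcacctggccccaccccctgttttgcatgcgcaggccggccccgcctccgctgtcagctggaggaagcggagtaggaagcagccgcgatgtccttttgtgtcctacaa

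The Pparg window shown was 80.3% G+C, with 1 half-site whose first base lies 28 bases before the start and 1 GC box at 177 bases before it. The Esrra window was 66% G+C and held GC boxes at 240 and 157 bases before the start. The Nr1h3 window shown was 63% G+C and held none of these 3 motifs. Of 32851 RefSeq promoter windows of the same length, 16.3% held AGGTCA, 35.7% GGGCGG and 37.4% CCAAT on either strand. Neither the direct repeat of AGGTCA with 1 spacer base bound by PPARγ with RXRα nor the ERR element TCAAGGTCA was found in the 3 windows shown. They occurred in 0.0396% and 0.423% of all windows, and both contain the half-site. Such matches describe letters only.

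In adipocytes, 3 of the 10 factors rose in the knockout-labelled mice, Pparg, Nr1h3 and Esrra, and none fell. Their log2 changes were 0.40, 0.49 and 0.56, or 1.32-, 1.41- and 1.47-fold. Over all 13795 genes tested in the same comparison 35.2% were called, 18.0% as higher and 17.1% as lower, so a share of 3 in 10 is close to the background. The sign was positive for 9 of the 10 factors, with a median log2 difference of 0.386 against -0.011 over all genes. The factors were chosen with earlier results of these data known, so these shares are descriptions. All calls are from edgeR's quasi-likelihood test at an adjusted p under 0.05.

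**Figure D1:**
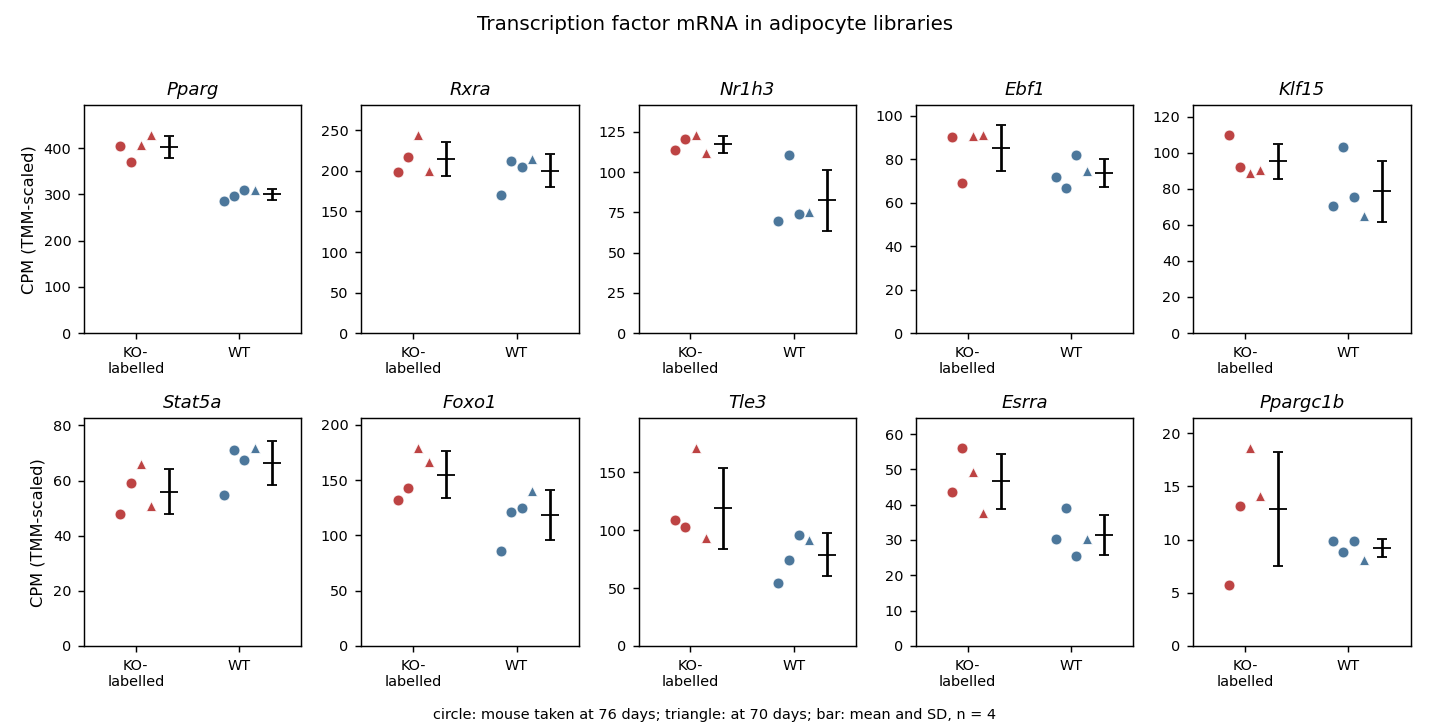
Normalised read count (CPM, TMM-scaled over all 16 libraries) of the 10 factors in each adipocyte library, with knockout-labelled mice left of wild-type mice in every panel. Circles are libraries of 76-day mice, triangles of 70-day mice, and bars are the mean with its SD (n = 4 per group). For Pparg and Nr1h3 every knockout-labelled library lies above every wild-type library.

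Pparg was counted at 405 CPM in KO-1137, 369 in KO-1139, 407 in KO-1151 and 428 in KO-1152, against 286 CPM in WT-1135, 297 in WT-1136, 309.6 in WT-1138 and 310.4 in WT-1153. All knockout-labelled libraries lay above all wild-type ones. The means were 402 ± 24.4 CPM in knockout-labelled and 301 ± 11.8 CPM in wild-type adipocytes (SD, n = 4 each), a log2 change of 0.40 ± 0.08 (SE; 95% interval 0.22 to 0.58, edgeR adjusted p = 0.0051). Groups failed to overlap for 34.3% of all genes, and for 2 of the 10 factors. Pparg lies on GRCm38 chromosome 6 from 115360951 to 115490399 on the plus strand, with 7 annotated transcripts and an antisense RNA gene, Gm44079, inside it. The symbol-level counts cannot separate its isoforms or, as the strand setting of the counting is not given, reads of the antisense gene.

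Rxra, its heterodimer partner (chromosome 2, 27676440 to 27762957), had 199, 217, 244 and 200.0 CPM in knockout-labelled adipocytes and 170.3, 212, 205 and 215 CPM in wild-type adipocytes, mice in the same order. The groups overlapped. The log2 difference was 0.08 ± 0.10 (95% interval -0.15 to 0.31, edgeR adjusted p = 0.562), so a rise of more than 0.31 lay outside the interval.

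Nr1h3, the LXRα gene (chromosome 2, 91184061 to 91202834, minus strand), had 114, 120.4, 123 and 112 CPM in knockout-labelled adipocytes, against 69.5, 110.4, 74.2 and 75.3 CPM in wild-type adipocytes. The knockout-labelled libraries were close together and all above the wild-type ones, among which WT-1136 stood near the knockout-labelled level. The log2 change was 0.49 ± 0.13 (95% interval 0.20 to 0.79, edgeR adjusted p = 0.0169). Without WT-1135 it was 0.41 and missed the threshold (edgeR adjusted p = 0.0524). The annotated Gm13783 overlaps Nr1h3 on the same strand.

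Esrra, which encodes ERRα, an orphan nuclear receptor of oxidative genes (chromosome 19, 6910977 to 6921813, minus strand), had 43.5, 56, 49.2 and 37.6 CPM in knockout-labelled adipocytes, against 30.3, 39.1, 25.5 and 30.4 CPM in wild-type adipocytes. The groups overlapped at a single pair, KO-1152 below WT-1136. The log2 change was 0.56 ± 0.15 (95% interval 0.22 to 0.89, edgeR adjusted p = 0.0174). Trmt112 overlaps Esrra on the opposite strand. Ppargc1b, for the ERRα coactivator PGC-1β (chromosome 18, 61298136 to 61400431, minus strand), had 5.71, 13.1, 18.6 and 14.1 CPM in knockout-labelled adipocytes and 9.82, 8.82, 9.87 and 8.12 CPM in wild-type adipocytes. Its lowest and its 3 highest values were all in knockout-labelled libraries. The log2 difference was 0.47 ± 0.29 (95% interval -0.17 to 1.11, edgeR adjusted p = 0.228). It became 0.72 without KO-1137 (edgeR adjusted p = 0.00447) and 0.25 without KO-1151 (edgeR adjusted p = 0.526). By age it was -0.0159 at 76 days (edgeR adjusted p = 0.981) and 0.99 at 70 days (edgeR adjusted p = 0.0244), where WT-1153 is the single wild-type library and is assumed to vary like the others.

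The remaining factors did not pass the test. Tle3, the corepressor (chromosome 9, 61372366 to 61418497), had 108, 103, 171 and 93.2 CPM in knockout-labelled and 54.8, 73.9, 95.9 and 91.2 CPM in wild-type adipocytes, with KO-1151 highest and only KO-1152 inside the wild-type range. Its log2 difference of 0.57 ± 0.22 was as large as that of Esrra but had a wider error (95% interval 0.08 to 1.05, edgeR adjusted p = 0.0678), and DESeq2 called it (adjusted p = 0.0333). Without KO-1151 it was 0.35 (edgeR adjusted p = 0.172). Foxo1, a mediator of the insulin response (chromosome 3, 52268336 to 52353221), had 132, 143, 179 and 167 CPM in knockout-labelled and 86.3, 121, 125 and 139.7 CPM in wild-type adipocytes, and KO-1137 lay below WT-1153. Its log2 difference was 0.37 ± 0.15 (95% interval 0.03 to 0.71, edgeR adjusted p = 0.0805), and it passed without KO-1137 (edgeR adjusted p = 0.0448) or without WT-1153 (edgeR adjusted p = 0.0485). Without WT-1135 it was 0.23 (edgeR adjusted p = 0.183).

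Klf15, a zinc finger factor of amino acid and glucose use (chromosome 6, 90462576 to 90475238), had 109.7, 92.3, 88.6 and 90.6 CPM in knockout-labelled and 70.4, 103, 75.6 and 64.7 CPM in wild-type adipocytes. The groups overlapped through WT-1136 alone. The log2 difference was 0.26 ± 0.13 (95% interval -0.04 to 0.56, edgeR adjusted p = 0.156), and 0.41 without WT-1136 (edgeR adjusted p = 0.0126).

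Ebf1, an early factor of the adipocyte lineage that B cells also use (chromosome 11, 44617317 to 45008091), had 90.2, 69.1, 90.5 and 91.1 CPM in knockout-labelled and 71.9, 66.6, 81.9 and 74.5 CPM in wild-type adipocytes. All but KO-1139 lay above the wild-type libraries, and the log2 difference was 0.19 ± 0.10 (95% interval -0.05 to 0.42, edgeR adjusted p = 0.191). Stat5a, which relays growth hormone and prolactin signals (chromosome 11, 100859351 to 100885169), was the factor with a negative sign. It had 47.9, 59, 65.8 and 50.7 CPM in knockout-labelled and 54.7, 71, 67.5 and 71.8 CPM in wild-type adipocytes, where WT-1135 lay inside the knockout-labelled range. Its log2 difference was -0.27 ± 0.12 (95% interval -0.54 to 0.00, edgeR adjusted p = 0.114), and -0.36 without WT-1135 (edgeR adjusted p = 0.0443). Stat5a is nearly identical to Stat5b over long stretches and overlaps Stat3 on the other strand, so its counts are uncertain.

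These calls depended in part on the scaling. With RLE size factors or upper-quartile factors in place of TMM, Pparg, Nr1h3 and Esrra stayed called. The edgeR adjusted p was 0.00553, 0.0197 and 0.0188 with RLE, and 0.0099, 0.0356 and 0.0306 with upper-quartile factors. With library totals in place of TMM the median of all genes shifted by -0.193 on the log2 scale, calls over all genes were 1293 higher and 3899 lower instead of 2487 and 2362, and Pparg, Nr1h3 and Esrra had log2 differences of 0.21, 0.30 and 0.36 (edgeR adjusted p = 0.0616, 0.0923 and 0.085), while Stat5a was called lower at -0.46 (edgeR adjusted p = 0.00667) and Rxra turned to -0.11. Within ages, Pparg, Nr1h3 and Esrra kept their sign, at 0.37, 0.46 and 0.64 in 76-day mice (edgeR adjusted p = 0.121, 0.179 and 0.0768) and 0.41, 0.62 and 0.50 in 70-day mice (edgeR adjusted p = 0.15, 0.0402 and 0.139), where a single wild-type library is assumed to vary like the others. With all 16 libraries in the fit Pparg was not called (0.42, edgeR adjusted p = 0.128), while Nr1h3 (0.51), Esrra (0.57) and also Tle3 (0.59) were (edgeR adjusted p = 0.00243, 0.00775 and 0.0368).

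Several lists of other-cell markers moved with the genotype label in the same adipocyte libraries, and the macrophage list did not pass for any gene. Of the tested markers, 12 of 12 endothelial, 10 of 12 fibroblast and progenitor, 9 of 11 mural, 4 of 11 lymphocyte and 0 of 11 macrophage genes were called lower, and none higher. The median log2 changes of these lists were -1.86, -1.45, -1.50, -1.05 and -0.507. Over all genes tested 17.1% were called lower and 18.0% higher. Of 3 tested hepatocyte genes 1 was called higher and 1 lower, and of 3 tested skeletal muscle genes 0 higher and 1 lower. Summed hepatocyte markers were 18.47 to 29.87 CPM in knockout-labelled and 37.98 to 105 CPM in wild-type libraries. Skeletal muscle markers were 6.823 to 7.022 CPM in knockout-labelled and 11.15 to 27.68 CPM in wild-type libraries. Summed mural markers were 391.3 to 503.1 CPM in knockout-labelled and 493.2 to 630.9 CPM in wild-type libraries. Summed macrophage markers were 71.35 to 390.3 CPM in knockout-labelled and 154.6 to 333.9 CPM in wild-type libraries, with KO-1137 the highest of the 8 and Clec4f at 0 in both groups, and lymphocyte markers 13.61 to 36.15 CPM in knockout-labelled and 24.08 to 52.67 CPM in wild-type libraries. The mean log2 CPM of the endothelial, fibroblast and mural genes was 3.014 to 4.192 in knockout-labelled and 4.436 to 5.684 in wild-type adipocytes, without overlap. With this score as a covariate, which largely repeats the genotype label, Pparg, Nr1h3 and Esrra had log2 differences of 0.30, 0.34 and 0.49 and were not called (edgeR adjusted p = 0.398, 0.574 and 0.47), Stat5a was called at -0.74 (edgeR adjusted p = 0.049), and Rxra, Foxo1, Tle3 and Ppargc1b took a negative sign. The part of other cells' RNA in the factors' values was not tested beyond this fit.

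In liver none of the 9 testable factors passed the test between the genotype labels by edgeR's quasi-likelihood test, DESeq2 or limma-voom, and Ebf1 was too low to test. The background was low too: 0.0226% of 13288 genes were called, 3 genes in all (Kng1, Kng2 and Zfp949, named after their values were seen), and all were higher (0.00% lower). At an unadjusted p under 0.05 there were 1 factor, Pparg, and 8.62% of all genes. The genotype groups overlapped for all 10 factors, and did not for 4.60% of genes. The median log2 difference of the 9 was -0.0134, against 8.14e-05 over all genes tested.

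**Figure D2:**
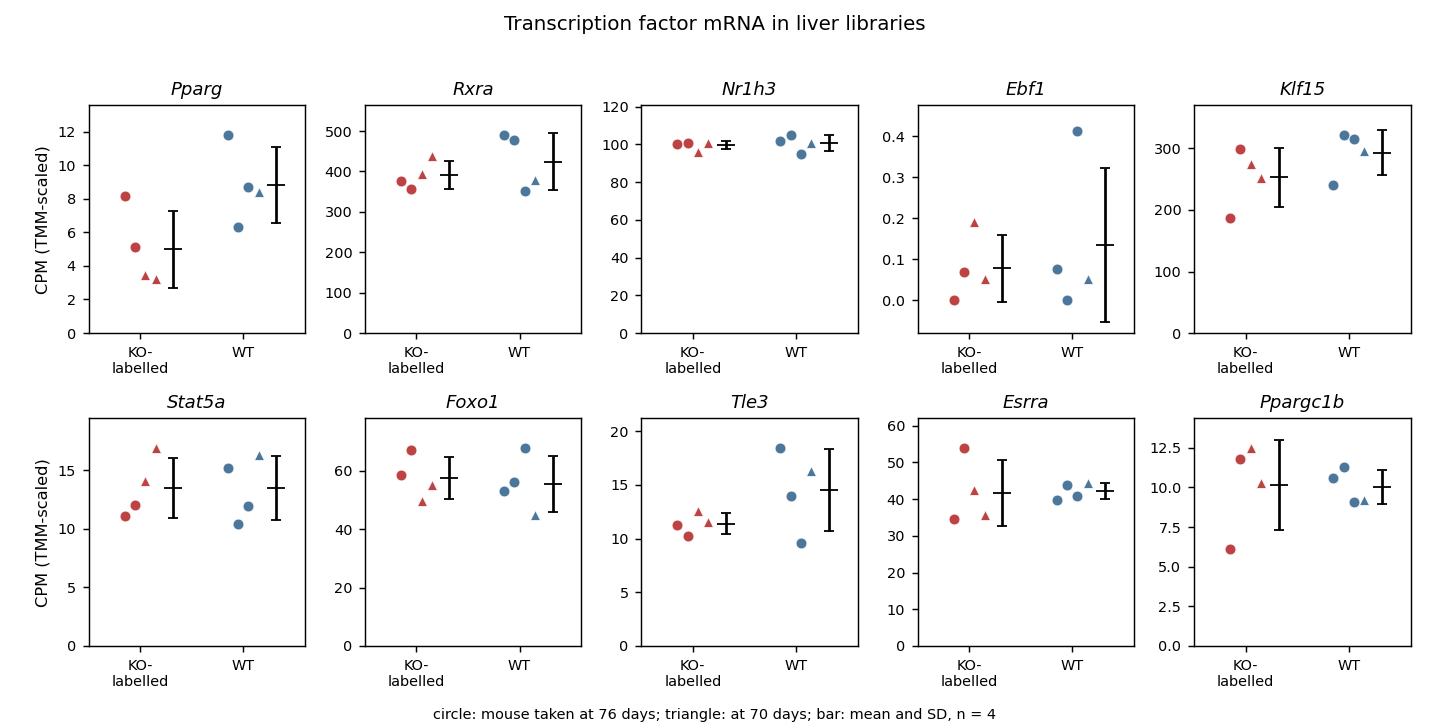
Normalised read count (CPM, TMM-scaled over all 16 libraries) of the 10 factors in each liver library, with knockout-labelled mice left of wild-type mice in every panel. Circles are libraries of 76-day mice, triangles of 70-day mice, and bars are the mean with its SD (n = 4 per group). The groups overlap for every factor, and the axis of Ebf1 runs below 0 to hold the SD.

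Pparg in liver had 8.19, 5.13, 3.43 and 3.19 CPM in knockout-labelled livers, against 11.8, 6.31, 8.72 and 8.38 CPM in wild-type livers. The 3 lowest values were from knockout-labelled livers, and KO-1137 lay within the wild-type range. The log2 difference was -0.83 ± 0.30 (95% interval -1.49 to -0.17, edgeR adjusted p = 0.512). It was -0.41 in 76-day and -1.35 in 70-day mice (edgeR adjusted p = 0.766 and 0.321), again with a single wild-type library at 70 days.

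The other receptors had smaller differences in liver. Nr1h3 had 100.2, 101, 96.2 and 101 CPM in knockout-labelled and 102, 105, 94.7 and 101 CPM in wild-type livers, a log2 difference of -0.01 ± 0.07 (95% interval -0.16 to 0.14, edgeR adjusted p = 0.977). This was the narrowest interval among the 9 factors in liver. Rxra had 376, 356, 393 and 438 CPM in knockout-labelled and 489.7, 479, 351 and 378 CPM in wild-type livers, with the wild-type group split between high WT-1135 and WT-1136 and lower WT-1138 and WT-1153 (log2 difference -0.11, edgeR adjusted p = 0.812). Leaving out 1 library at a time gave -0.19 for Rxra without WT-1138 to -0.0401 without WT-1135. Esrra had 34.5, 53.9, 42.5 and 35.8 CPM in knockout-labelled and 39.8, 43.8, 40.9 and 44.4 CPM in wild-type livers (log2 difference -0.01, edgeR adjusted p = 0.984).

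Klf15 had 187, 299, 275 and 252 CPM in knockout-labelled and 240.0, 322, 316 and 296 CPM in wild-type livers, where KO-1137 was the lowest of the 8 (log2 difference -0.21 ± 0.14, edgeR adjusted p = 0.707, and -0.0937 without KO-1137). Tle3 had 11.2, 10.2, 12.6 and 11.5 CPM in knockout-labelled and 18.4, 13.9, 9.54 and 16.3 CPM in wild-type livers, with WT-1138 below every knockout-labelled value (log2 difference -0.35 ± 0.17, edgeR adjusted p = 0.619, and -0.22 without WT-1135). Foxo1 ran from 49.7 to 67.1 CPM in knockout-labelled and 45.0 to 67.8 CPM in wild-type livers, Stat5a from 11.1 to 16.9 CPM in knockout-labelled and 10.4 to 16.4 CPM in wild-type livers, and Ppargc1b from 6.14 to 12.5 CPM in knockout-labelled and 9.06 to 11.3 CPM in wild-type livers. The ranges of these 3 factors overlapped, at log2 differences of 0.06, 0.01 and 0.03 (edgeR adjusted p = 0.922, 0.994 and 0.976).

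The difference between the genotype effects, adipocyte minus liver, was tested in one model over all 16 libraries. It passed for Pparg, at 1.27 ± 0.31 on the log2 scale (edgeR adjusted p = 0.0104), for Tle3 at 0.94 ± 0.30 (edgeR adjusted p = 0.0393) and for Nr1h3 at 0.52 ± 0.16 (edgeR adjusted p = 0.0301). These 3 of 10 factors stand against 19.1% of 14898 genes called, 10.4% as higher and 8.73% as lower. Pparg and Tle3 had opposite signs in the tissues, 0.40 and 0.57 in adipocytes against -0.83 and -0.35 in liver. Of these values only 0.40, for Pparg in adipocytes, was called within its tissue. With the mouse as a block, Tle3 missed the threshold (0.91, edgeR adjusted p = 0.0739) and Esrra passed it (0.61, edgeR adjusted p = 0.0152, against 0.59 and 0.063 without the block). Esrra also passed without WT-1136 (0.70, edgeR adjusted p = 0.0398) or without KO-1139 (0.61, edgeR adjusted p = 0.0483). Leaving out any 1 mouse other than WT-1138 ended the call of Tle3, at edgeR adjusted p = 0.0516 to 0.149, and leaving out any 1 mouse other than WT-1136 or KO-1137 ended that of Nr1h3, at 0.0599 to 0.0979. With library totals, which moved the median of all genes by -0.236, calls over all genes were 683 higher and 2242 lower instead of 1544 and 1301, and Pparg alone stayed called. Within ages the differences for Pparg, Tle3 and Nr1h3 were 0.81, 0.88 and 0.47 at 76 days (edgeR adjusted p = 0.195, 0.2 and 0.306) and 1.74, 0.94 and 0.64 at 70 days (edgeR adjusted p = 0.0247, 0.379 and 0.178), with 1 wild-type mouse at 70 days.

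**Figure D3:**
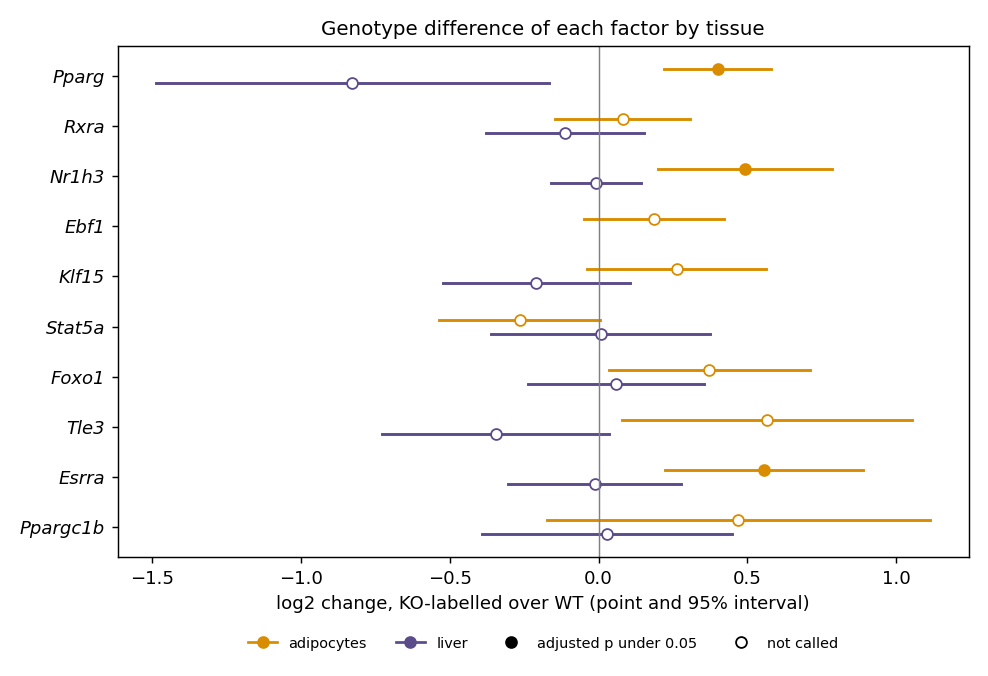
Log2 difference between knockout-labelled and wild-type libraries for each factor, in adipocytes and in liver, with 95% intervals from edgeR's quasi-likelihood fit (n = 4 per group). Only the adipocyte values of Pparg, Nr1h3 and Esrra passed an adjusted p of 0.05, and Pparg and Tle3 lie on opposite sides of 0 in the tissues.

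Set against liver, the factors fell into 3 kinds. Ebf1, Pparg, Tle3, Stat5a and Foxo1 were higher in adipocytes in both genotypes. Rxra and Klf15 were lower in adipocytes in both genotypes, and Nr1h3, Esrra and Ppargc1b had the smallest differences. In knockout-labelled mice 8 of the 10 factors were called between tissues with TMM scaling, 6 higher and 2 lower in adipocytes, against 79.8% of 14229 genes, 40.4% higher and 39.3% lower. In wild-type mice 8 were called, 5 higher and 3 lower, against 77.6% of 14366 genes, 40.5% higher and 37.2% lower. Groups did not overlap for 8 factors in either genotype, against 75.5% of genes in knockout-labelled and 73.4% in wild-type mice.

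Ebf1 had the largest tissue difference of the 10 factors: its liver libraries held 0, 2, 8 and 2 counts in knockout-labelled and 2, 0, 12 and 2 counts in wild-type mice. Over the summed libraries, 16349 against 12 counts gave an adipocyte to liver ratio of 944 in knockout-labelled mice (exact 95% interval 433 to 2570). In wild-type mice 15338 against 16 counts gave 546 (exact 95% interval 277 to 1260). These intervals cover counting error only, and were taken on halved counts because even numbers made up 77.9% of values between 1 and 20. If every count is independent, a count of 0 allows up to 3 counts, which is 0.0476 to 0.12 CPM per library. If low counts come in pairs, as the even numbers may mean, this limit would be higher.

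Pparg was 6.35 ± 0.29 log2 units higher in adipocytes than in liver of knockout-labelled mice (edgeR adjusted p = 7.51e-09) and 5.09 ± 0.19 higher in wild-type mice (edgeR adjusted p = 1.14e-09). Tle3 was higher in adipocytes by 3.37 ± 0.19 in knockout-labelled and 2.43 ± 0.23 in wild-type mice (edgeR adjusted p = 4.18e-08 and 2.16e-06). Stat5a was higher by 2.04 ± 0.15 in knockout-labelled and 2.28 ± 0.16 in wild-type mice (edgeR adjusted p = 3.23e-07 and 1.76e-07). For Foxo1 the difference was 1.42 ± 0.13 in knockout-labelled and 1.08 ± 0.16 in wild-type mice (edgeR adjusted p = 1.63e-06 and 0.000101). All of these adipocyte libraries lay above all liver libraries of the same genotype.

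Klf15 was lower in adipocytes, with a log2 difference of -1.42 ± 0.13 in knockout-labelled mice (edgeR adjusted p = 2.83e-06) and of -1.91 ± 0.16 in wild-type mice (edgeR adjusted p = 8.24e-07). Rxra differed by -0.87 ± 0.10 in knockout-labelled and -1.09 ± 0.14 in wild-type mice (edgeR adjusted p = 1.48e-05 and 3.63e-05). Nr1h3 was called higher in adipocytes of knockout-labelled mice (0.23 ± 0.07, edgeR adjusted p = 0.0101) and was not called in wild-type mice (-0.30 ± 0.13, edgeR adjusted p = 0.0628, 0.0454 with the mouse as a block). Its call in knockout-labelled mice ended without KO-1139 or KO-1151 (edgeR adjusted p = 0.0507 and 0.0924), and without WT-1136 it was called at -0.44 in wild-type mice (edgeR adjusted p = 0.00359), a sign that turned with library totals. With all 16 libraries in the fit it was 0.24 in knockout-labelled and -0.29 in wild-type mice, and only the wild-type value was called (edgeR adjusted p = 0.0655 and 0.0273). Esrra was at 0.15 ± 0.16 in knockout-labelled mice (edgeR adjusted p = 0.392) and at -0.44 ± 0.12 in wild-type mice, where it was called with TMM scaling (edgeR adjusted p = 0.00586) and turned to 0.21 with library totals.

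Ppargc1b did not differ detectably between tissues, at 0.33 ± 0.32 in knockout-labelled and -0.14 ± 0.13 in wild-type mice (edgeR adjusted p = 0.367 and 0.35). Without KO-1137 it was called in knockout-labelled mice at 0.38 (edgeR adjusted p = 0.0443). The tissue comparison depends on scaling, since library totals moved the median of all genes by 0.413 in knockout-labelled and 0.648 in wild-type mice. Calls over all genes were then 7414 higher and 3997 lower instead of 5753 and 5596 in knockout-labelled mice, and 8465 higher and 3064 lower instead of 5817 and 5337 in wild-type mice. In wild-type mice Nr1h3, Esrra and Ppargc1b then turned to 0.35, 0.21 and 0.52 (edgeR adjusted p = 0.0343, 0.154 and 0.00693). With RLE size factors they were at -0.32, -0.47 and -0.17, and with upper-quartile factors at -0.24, -0.38 and -0.08. The direction of these 3 factors in wild-type mice thus turned with library totals alone among the scalings tried. In knockout-labelled mice library totals called all 10 factors, with Nr1h3, Esrra and Ppargc1b at 0.64, 0.57 and 0.73 (edgeR adjusted p = 3.29e-06, 0.00461 and 0.0497). Rxra stayed lower in adipocytes but by less, at -0.46 in knockout-labelled and -0.45 in wild-type mice (edgeR adjusted p = 0.000807 and 0.00845).

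Levels per kilobase of merged exon allow a rough order of the factors. Merged exons cover all annotated transcripts of a gene, and the length of the transcripts present was not measured. In knockout-labelled adipocytes the mean level was 136.3 CPM per kb for Pparg, 46.63 for Nr1h3, 39.37 for Rxra, 34.15 for Klf15, 17.9 for Foxo1, 10.62 for Esrra, 10.2 for Tle3, 8.736 for Ebf1, 7.833 for Stat5a and 3.227 for Ppargc1b. Pparg stood clear of all others. Ranges overlapped between the neighbours Nr1h3 and Rxra, Rxra and Klf15, Esrra and Tle3, Tle3 and Ebf1, and Ebf1 and Stat5a, so their order is not settled.

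In wild-type adipocytes Pparg again led at 101.8 CPM per kb, followed by Rxra at 36.71, Nr1h3 at 32.75 and Klf15 at 28.13, and Ppargc1b was again last at 2.295. There the ranges of Rxra and Nr1h3, and of Nr1h3 and Klf15, overlapped, so their order is not settled. In knockout-labelled liver the order began with Klf15 at 90.81, Rxra at 71.58 and Nr1h3 at 39.6 CPM per kb, and in wild-type liver with the same 3 genes at 105.1, 77.69 and 40.0. Klf15 and Rxra overlapped in both liver groups. Pparg, first in adipocytes, was at 1.688 CPM per kb in knockout-labelled and 2.98 in wild-type liver, where its range overlapped those of Ppargc1b and Stat5a in both liver groups. It overlapped that of Tle3 in knockout-labelled liver and lay above it in wild-type liver.

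**Figure D4:**
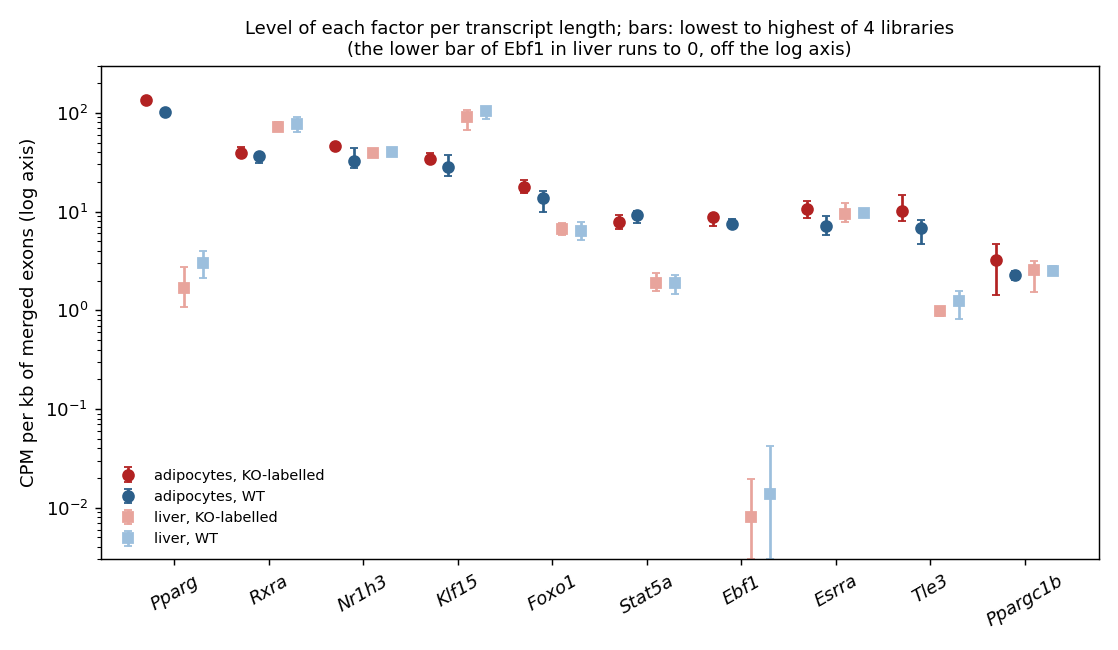
Level of each factor per kilobase of merged exon (CPM per kb, log axis) in the 4 groups, with points for group means and bars from the lowest to the highest of 4 libraries. The lower bar of Ebf1 in liver runs to 0, off the axis. Pparg is the highest factor in adipocytes of both genotypes, and Klf15, Rxra and Nr1h3 are the highest in liver.

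The genes that act with these factors were followed as lists of known relatives, partners and targets. The lists were chosen with earlier results of these data known, so their counts and medians are descriptions and no independent test. Their counts in adipocytes stand against the 35.2% of all genes called, 18.0% as higher and 17.1% as lower. In adipocytes the targets of ERR and PGC-1, which include genes of mitochondrial enzymes, had the most calls. Of 17 tested, 12 rose in knockout-labelled mice and 0 fell. Their median log2 difference was 0.545, against -0.011 over all genes. DESeq2 and limma-voom gave the same counts, and 1 gene was lower at an unadjusted p under 0.05. Idh3a, a subunit of isocitrate dehydrogenase, averaged 522 CPM in knockout-labelled and 264 CPM in wild-type adipocytes (log2 change 0.97 ± 0.11, edgeR adjusted p = 0.000331). Cycs, cytochrome c, averaged 152 CPM in knockout-labelled and 82.3 CPM in wild-type adipocytes (0.86 ± 0.11, edgeR adjusted p = 0.000617). Uqcrc1, of the cytochrome bc1 complex, averaged 338 CPM in knockout-labelled and 217 CPM in wild-type adipocytes (0.62 ± 0.09, edgeR adjusted p = 0.00141). With library totals 11 rose and 0 fell, and with the stromal score as a covariate none was called while the median was 0.301.

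Targets of PPARγ in fat cells went both ways: 8 of 22 rose and 2 fell, with a median of 0.321, against 18.0% of all genes called higher and 17.1% lower. The fatty acid binding protein gene Fabp5 averaged 426 CPM in knockout-labelled and 161 CPM in wild-type adipocytes (log2 change 1.39 ± 0.19, edgeR adjusted p = 0.000877). Pck1, the enzyme of glyceroneogenesis, averaged 5017 CPM in knockout-labelled and 2959 CPM in wild-type adipocytes (0.74 ± 0.15, edgeR adjusted p = 0.00483). Cidea, a lipid droplet protein of brown and beige fat, fell to 24.2 CPM in knockout-labelled, against 48.8 CPM in wild-type adipocytes (-1.03 ± 0.16, edgeR adjusted p = 0.00185). Cidec, Fabp4, Cd36 and Cebpa, from the same list and picked after their values were seen, had log2 differences of -0.06, 0.08, 0.06 and 0.01 (edgeR adjusted p = 0.844, 0.712, 0.713 and 0.951).

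The LXR, FOXO and KLF15 lists are short, and their counts are to be read against the same 18.0% higher and 17.1% lower. Of 11 tested LXR targets 3 rose and 2 fell, with a median of 0.354. Apoe, apolipoprotein E, rose by 0.60 (edgeR adjusted p = 0.00499), while Mylip, a ubiquitin ligase for the LDL receptor, fell by 1.44 and Pltp, a phospholipid transfer protein, fell by 1.38 (edgeR adjusted p = 0.000597 and 0.00549). Targets of FOXO factors rose in 5 and fell in 3 of 16 tested, with a median of 0.155, and the muscle ubiquitin ligase gene Fbxo32 averaged 40.7 CPM in knockout-labelled and 20.03 CPM in wild-type adipocytes (edgeR adjusted p = 0.00177) while the cell cycle inhibitor gene Cdkn1b fell by 0.43 (edgeR adjusted p = 0.0215). Of 9 tested KLF15 targets 3 rose and 1 fell, with a median of 0.123, among them Bckdha of branched-chain amino acid breakdown (0.62, edgeR adjusted p = 0.00283) and the alanine transaminase Gpt (0.55, edgeR adjusted p = 0.0034). Some genes are on several lists and are counted in each, among them Pck1 on the PPARγ, FOXO and KLF15 lists and Pdk4 on the ERR and FOXO lists.

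Of 10 STAT5 targets 0 rose and 3 fell, with a median of -0.181. A total of 3 in 10 is close to the 35.2% of all genes called. No member was higher at an unadjusted edgeR p under 0.05 or by DESeq2 or limma-voom, which called 3 and 2 lower. These were Igfals, a carrier subunit for insulin-like growth factors, Socs1, a feedback inhibitor of cytokine signalling, and Ccnd1, cyclin D1, at -0.60, -0.37 and -1.21 (edgeR adjusted p = 0.0237, 0.0268 and 0.0385).

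**Figure D5:**
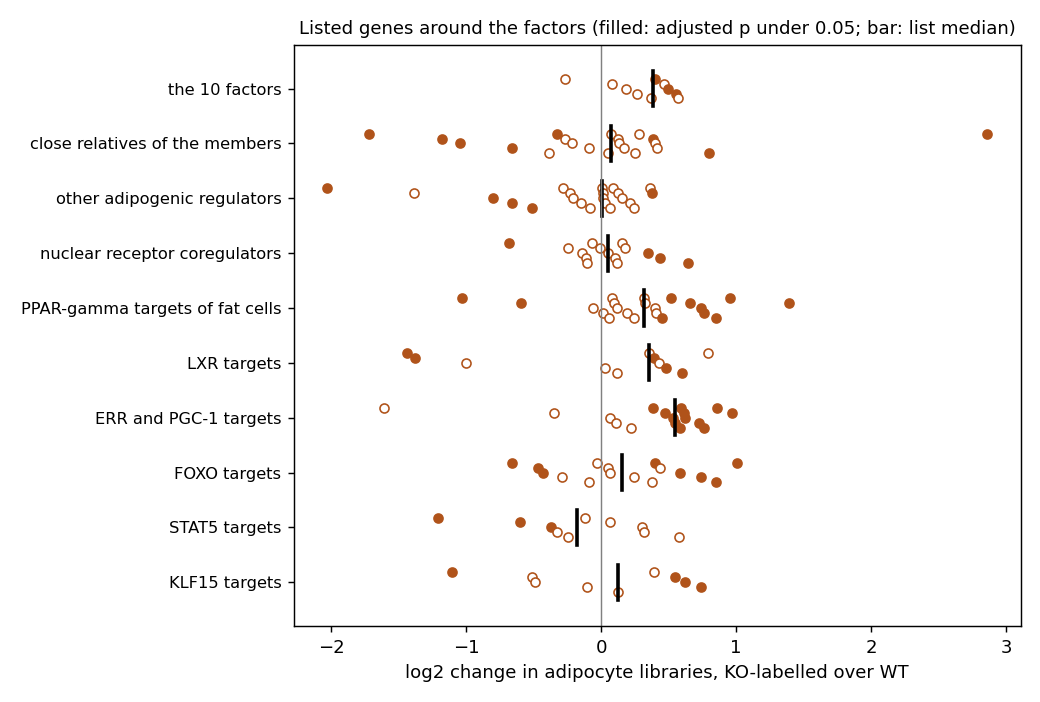
Log2 difference between knockout-labelled and wild-type adipocytes for the 10 factors and every tested gene of the 9 lists of relatives, partners and targets, with each list's median as a black bar and filled points for called genes. The ERR and PGC-1 targets have a median of 0.545 and 12 called genes, all higher, and the STAT5 targets have a median of -0.181 and 3 called genes, all lower, against 18.0% of all genes called higher and 17.1% lower. The lists were chosen with earlier results of these data known.

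Among close relatives of the factors 3 of 21 rose and 5 fell, with a median of 0.0729, a share called close to the 35.2% of all genes. Esrrb, an ERR receptor, averaged 1.91 CPM in knockout-labelled and 0.256 CPM in wild-type adipocytes (log2 change 2.86 ± 0.30, edgeR adjusted p = 0.000215). Aes, a truncated Groucho relative, rose by 0.38 (edgeR adjusted p = 0.00751), and the low-level Ebf4 fell by 1.72 (edgeR adjusted p = 0.00996). Ppargc1a, the PGC-1α gene and sister of Ppargc1b, named after its values were seen, averaged 21.6 CPM in knockout-labelled and 12.2 CPM in wild-type adipocytes (0.80 ± 0.26, edgeR adjusted p = 0.0386). Nr1h2, the LXRβ gene, also picked afterwards, fell by 0.33 (edgeR adjusted p = 0.0332).

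Of 22 other adipogenic regulators 1 rose and 4 fell, with a median of 0.00839, and of 15 tested nuclear receptor coregulators 3 rose and 1 fell, with a median of 0.0477. Both shares called are below the 35.2% of all genes. Gata2, a repressor of adipogenesis that endothelium also uses, fell by 2.03, Prdm16, a regulator of beige fat, fell by 0.80, and Egr2 fell by 0.52 (edgeR adjusted p = 0.00515, 0.0203 and 0.0264). The coactivator gene Ncoa1 rose by 0.44 and the corepressor subunit gene Tbl1xr1 by 0.35, while the coactivator gene Ncoa3 fell by 0.68 (edgeR adjusted p = 0.0196, 0.00897 and 0.0087). With library totals the medians of 5 lists turned negative, at -0.183 for the other adipogenic regulators, -0.146 for the coregulators, -0.121 for the close relatives, -0.0334 for the FOXO targets and -0.0696 for the KLF15 targets.

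In liver no gene of any of the 9 lists was called by edgeR's quasi-likelihood test or limma-voom, and DESeq2 called 2 PPARγ targets, 1 higher and 1 lower. At an unadjusted p under 0.05 there were 20 of the 126 distinct genes tested, against 8.62% of all genes. The smallest p belonged to Cd36, a fatty acid transporter and PPARγ target, at a mean of 18.2 CPM in knockout-labelled and 44.5 CPM in wild-type livers (log2 difference -1.29 ± 0.24, edgeR adjusted p = 0.251). Srebf1, an LXR target, had -0.49 (edgeR adjusted p = 0.407).

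Within groups, other genes that moved most closely with each factor were found from the deviations of log2 CPM from the 4 group means, over 16 libraries and 10738 genes with at least 1 CPM in both tissues. Deviations share each library's scaling and cell makeup, so Pearson r is given as a description. The closest was Id3 for Pparg (0.852), Hdlbp for Rxra (0.939), Pex5 for Nr1h3 (0.943), Rras for Klf15 (0.89) and Top1mt for Stat5a (0.952). For Foxo1 it was Klhl7 (0.908), for Tle3 Hipk2 (0.866), for Esrra Pcsk4 (0.918) and for Ppargc1b Hoga1 (0.834), followed by Ppara (0.818) and Fbxo32 (0.809). Ebf1 was under 1 CPM in liver and has no entry. Among the factors themselves the closest pairs were Rxra with Tle3 (0.724) and Stat5a with Tle3 (0.619), while Pparg and Klf15 deviated in opposite directions (-0.544). The SD of Pparg was 46.2% of its mean in knockout-labelled and 25.7% in wild-type liver. In adipocytes it was 6.06% in knockout-labelled and 3.91% in wild-type mice. The r values of Pparg, with Id3 and Klf15 too, therefore rest mostly on the liver libraries, where its counts were low.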

How the data were processed

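Polyadenylated RNA of adipocytes and liver of 8 mice was measured in 16 libraries. Adipose RNA was extracted with a lipid tissue kit and liver RNA with TRIzol, and TruSeq libraries were read on a NextSeq instrument, per the labels' protocols. The authors deposited raw counts per gene symbol, 1 file per library, and bcl2fastq 2.17, STAR 2.5.2b, featureCounts 1.5.0 and mm10 are named in the submitters' processing notes. The annotation, the strand setting and the handling of reads with several matches are not stated in any source consulted. Even numbers made up 77.9% of the deposited counts between 1 and 20, for a reason that is not known. Low counts may therefore not be independent molecules, which was not tested.

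Genotype was compared within each tissue, tissue within each genotype, and the genotype effects between tissues, with edgeR 4.0.16 in R 4.3.3 (quasi-likelihood test, TMM, filterByExpr by group, two-sided, Benjamini-Hochberg over all genes tested, adjusted p under 0.05). CPM values were scaled by TMM over all 16 libraries. DESeq2 1.42.0 and limma 3.58.1 (voom) were alternatives, with other scalings, filters, age subsets, left-out libraries, a stromal marker covariate and the mouse as a block. The tests were also tried on simulated data, and no result given here rests on that trial. Its planted rises were all larger than those of Pparg, Nr1h3 and Esrra in adipocytes. Between libraries of a group the chi-square over genes was 30.4 or more per degree of freedom, so none was treated as a library deposited again. Depth limits the precision of genes with few counts, such as Ebf1 in liver.

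The adipocyte and liver libraries of a mouse are paired by the animal number in the titles. Their deviations from the group means had a Pearson r of -0.11 to 0.188 across 10738 genes. The factors and gene lists were chosen with earlier results of these data known. Named for a change or a likeness, besides the factors, are Trib1, up to 3 list members with the smallest p, and up to 3 genes most like a factor. Genes picked after their values were seen are marked so where they appear. Trac of the lymphocyte list had no match, and Hcar1, Perm1 and Adgre1 were matched by older symbols. Positions and merged exon lengths are from GENCODE M21 on GRCm38, and promoters from RefSeq.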

Additional observations from a re-analysis of the deposited data

Results flagged for a closer look

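Among 40 groups of 4 libraries, 3 had a library far from the others, and chance gives about 1 in 20. Ebf1 in knockout-labelled adipocytes was 69.1 CPM in KO-1139 against 90.2 CPM in the next library, a gap of 0.961 of the group's range. Nr1h3 in wild-type adipocytes was 110.4 CPM in WT-1136 against 75.3 CPM in the next (0.858), and in knockout-labelled liver 96.2 CPM in KO-1151 against 100.2 CPM (0.843), a gap of a few percent of the level.

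The genotype effect differed between adipocytes and liver for Pparg (log2 difference 1.27), Tle3 (0.941) and Nr1h3 (0.524). For Pparg the signs were opposite, at 0.40 in adipocytes and -0.83 in liver, where it was not called (edgeR adjusted p = 0.512). For Nr1h3 the liver difference was -0.01, and nearly all of the contrast came from the adipocyte libraries.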

How the results depend on the processing

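Of the single-gene values under the alternatives, 870 kept direction and side of the threshold, and 42 lost and 23 gained a call with the same sign. Another 46 changed sign, most of them near 0, and were not counted as lost or gained calls. The causes were not tested. In adipocytes, library totals gave 1 factor called, Stat5a, and -0.11 for Rxra and -0.000646 for Ebf1. The 76-day mice gave 1730 genes and 0 factors called, with -0.0159 for Ppargc1b, and the 70-day mice 1595 genes. The stromal covariate gave 455 genes and 1 factor, with -0.28 for Rxra, -0.32 for Foxo1, -0.18 for Tle3, -0.39 for Ppargc1b and -0.40 for Trib1. Leaving out 1 library gave 3 to 5 factors (5 without KO-1137) and -0.00315 to 0.13 for Rxra.

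In liver, upper-quartile factors gave 1 gene called, no filter 5, DESeq2 102, and each age 0. Leaving out 1 library gave 1 to 3 genes, -0.0345 to 0.0114 for Nr1h3, -0.12 to 0.12 for Stat5a, -0.0303 to 0.17 for Foxo1, -0.16 to 0.0601 for Esrra and -0.0810 to 0.20 for Ppargc1b. Library totals gave 0.00932 for Nr1h3 and 0.0029 for Esrra, and no filter gave -0.000386 for Stat5a. Age as a covariate gave -0.0944 for Stat5a, 0.00105 for Esrra and -0.00863 for Ppargc1b. The 76-day mice gave 0.0204 for Nr1h3, -0.10 for Stat5a, 0.11 for Esrra and -0.18 for Ppargc1b, and the 70-day mice 0.13 for Rxra, -0.0912 for Stat5a and -0.0542 for Trib1.

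Between tissues in wild-type mice, library totals gave 0.35 for Nr1h3, 0.21 for Esrra and 0.52 for Ppargc1b. For the difference of genotype effects, library totals and upper-quartile factors left 1 factor called, with -0.0142 for Rxra and -0.0409 for Trib1 under library totals. The 76-day mice gave 666 genes and 0 factors, and the 70-day mice 158 genes and 1 factor, with -0.12 for Rxra and -0.96 for Ebf1. Leaving out 1 mouse gave 1758 to 2988 genes, 1 to 3 factors, and -0.68 to 1.77 for Ebf1, whose liver counts are near 0. The replicate block gave 2245 genes and 3 factors for that difference, 11175 genes and 8 factors in knockout-labelled and 10759 genes and 9 factors in wild-type mice, and changed calls of Tle3, Esrra and Nr1h3 alone. The wild-type tissue comparison at 70 days was not run, with 1 library per tissue.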

Other observations

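Beyond the factors' own lists, 2 of 12 adipocyte marker genes rose in knockout-labelled adipocytes and none fell, a share close to the 18.0% of all genes called higher. Retn, which encodes the fat cell hormone resistin, averaged 2215 CPM in knockout-labelled and 907 CPM in wild-type adipocytes (log2 change 1.27 ± 0.14, edgeR adjusted p = 0.000345). Adrb3, the β3-adrenergic receptor gene, averaged 688 CPM in knockout-labelled and 392 CPM in wild-type adipocytes (0.79 ± 0.16, edgeR adjusted p = 0.00538).

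In liver, several target genes with the smallest p of their lists had sizeable differences that did not pass the adjustment. Txnip, a FOXO target that limits glucose uptake, had a log2 difference of 1.38 ± 0.38 (edgeR adjusted p = 0.4). Cyp7a1, the rate-limiting enzyme of bile acid synthesis, had -1.04 ± 0.43 (edgeR adjusted p = 0.543), and Abcg8, a subunit of a sterol transporter, had -0.37 ± 0.10 (edgeR adjusted p = 0.39). Prodh, a proline-degrading enzyme gene of the KLF15 list, had -0.45 ± 0.12 (edgeR adjusted p = 0.376).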
